A study of Mus musculus with 192 samples.

Results

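The flight response of epididymal white adipose tissue (eWAT) in wild-type (WT) mice was described from 12 of the 192 libraries of the series, namely the white adipose libraries of the 6 WT mice labelled Flight (FL_WT) and of the 6 WT mice labelled Ground_control (GC_WT), over all genes of the deposited table. All 12 animals were individually housed males labelled C57BL/6, on the C57BL/6J background, given as 12 weeks of age, and carried no engineered allele. In the paper, 12 weeks is the age at which flight mice were ready for transport, so their tissue was taken at a later age. FL_WT mice spent a month on the International Space Station, returned alive and were dissected in San Diego. GC_WT mice were kept in the same cage units at Tsukuba, Japan, some months later. Both groups went through behavioural tests before dissection. The paper states that flight mice were changed to flight food before launch and that ground mice were fed CRF-1. How far these foods differed is not given. Flight, return to Earth, dissection site, season and any difference in food therefore cannot be told apart in any value given here. A mouse number shared by a flight and a ground mouse (FL03 and GC03, for instance) names different animals. The question behind the comparison was how fat tissue responded to space travel. Further sets of libraries were used as references, the eWAT of Nrf2-KO mice, which lack the stress response regulator Nrf2 in the whole body (6 GC_KO and 5 FL_KO mice, FL04 being left out), and the interscapular brown adipose tissue (iBAT) of the same 12 WT mice.

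Epididymal fat is a visceral white depot in which adipocytes store triglyceride in a single large droplet. The adipocyte takes up fatty acids that lipoprotein lipase frees from circulating lipoproteins, makes fatty acids from glucose under the control of insulin through the transcription factors SREBP1c and ChREBP, and releases them again when lipases at the droplet are activated. Branched chain amino acids are broken down in its mitochondria and feed carbon into the same lipids. The depot also holds endothelial cells, fibroblast-like precursors, macrophages, mast cells and a mesothelial cover, and in mice small lymphoid clusters that contain B cells. In bulk RNA, fewer cells of a type and less RNA per cell cannot be told apart.

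The 12 libraries held about 15471200 to 15995100 estimated counts each, and their tissue label fitted their markers. The summed level of 16 adipocyte markers was 93574 to 110350.0 TPM (transcript level per length, scaled to the same total in every library) in GC_WT and 74334 to 97047 TPM in FL_WT, while the genes that mark epididymis and testis summed to at most 6.71 TPM. Library FL03 stood apart. Its 13 plasma cell markers summed to 3789 TPM, against 38.3 to 403 TPM in the other FL_WT and 22.8 to 1632 TPM in the GC_WT libraries, and its 18 B cell markers to 2799 TPM, against 846 to 1252 and 897 to 1766 TPM. The B cell list includes Cd74, which is also listed with the dendritic cell and MHC class II genes, so its sum is not of B cells alone. The B cell gene Ms4a1 (CD20) measured 9.53 TPM in FL03 and at most 0.46 TPM in the other 5 FL_WT libraries, and Cd79a 27.9 TPM against at most 2.58 TPM. GC07 was the ground library nearest to it, with 1632 TPM of plasma cell markers. FL03 also held the highest macrophage sum (4348 TPM, against 2275 to 3151 TPM in the other FL_WT and 2156 to 2934 TPM in GC_WT) and the highest mesothelial sum (324 TPM). Of these lists, 13 B cell and 11 plasma cell genes had enough counts to be tested, as had 20 T cell and NK cell markers, and none was called between the groups by edgeR. At an unadjusted p under 0.05 were 0 of the B cell, 5 of the plasma cell (all higher) and 4 of the T and NK cell markers (all lower), and DESeq2 called 0, 0 and 1 of them. With 1 library left out, at most 1, 2 and 1 were called by edgeR (B cell without FL03, plasma cell without GC06, T and NK cell without FL03, GC06 or GC08). Where a named gene lost its call without FL03 or another library, that is said beside it.

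**Figure D1:**
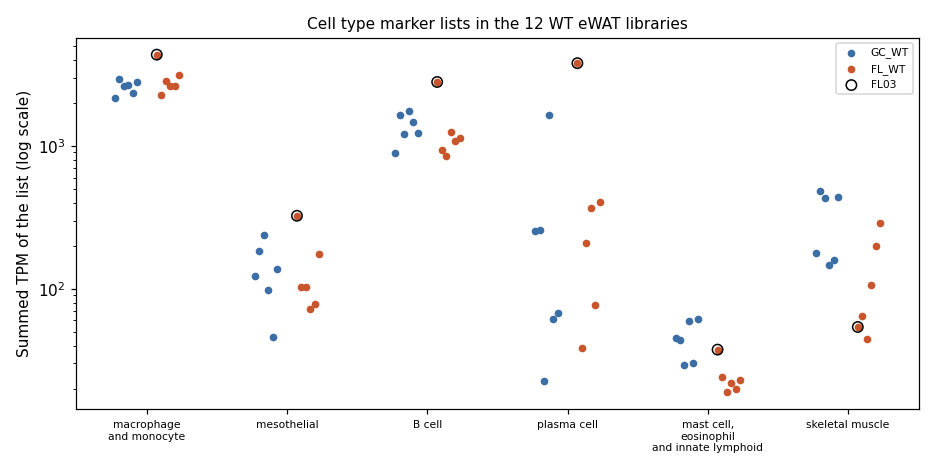
Summed TPM (log scale) of 6 cell type marker lists in the 12 WT eWAT libraries, 1 point per library, GC_WT in blue and FL_WT in orange, with FL03 ringed. FL03 is the highest library for the macrophage, mesothelial, B cell and plasma cell lists, and the 6 FL_WT libraries share the GC_WT range or lie below it for the mast cell list.

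Of 54752 genes in the table, 15317 had enough counts to be tested by edgeR's quasi-likelihood test, and a gene was called at a Benjamini-Hochberg adjusted p under 0.05. In FL_WT, 6.65 percent of the tested genes were called higher and 6.78 percent lower, 149 of the former and 138 of the latter by at least 2-fold. Fold changes are given as log2 of flight over ground with ± 1 standard error (SE), each replicate being a separate mouse, and their median over all tested genes was 0.00. The SE was derived from the test, as the size of the log2 fold change divided by the square root of the F statistic. It therefore draws on the spread of all libraries in the fit. In 6.57 percent of tested genes the 6 TPM values of one group all lay above those of the other. The share of higher against lower calls moved with the scale, since limma on log2(TPM + 1) put 79.9 percent of its calls in the higher direction where edgeR put 49.5 percent. Called genes named below kept their direction on that scale and under the other scalings tried. A set of 52 gene lists organises the account, and each list is read against the shares above. Where a list held no call in a direction, brackets after it give 3 counts, the members at an unadjusted p under 0.05 in that direction and those called by DESeq2 and by limma.

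**Figure D2:**
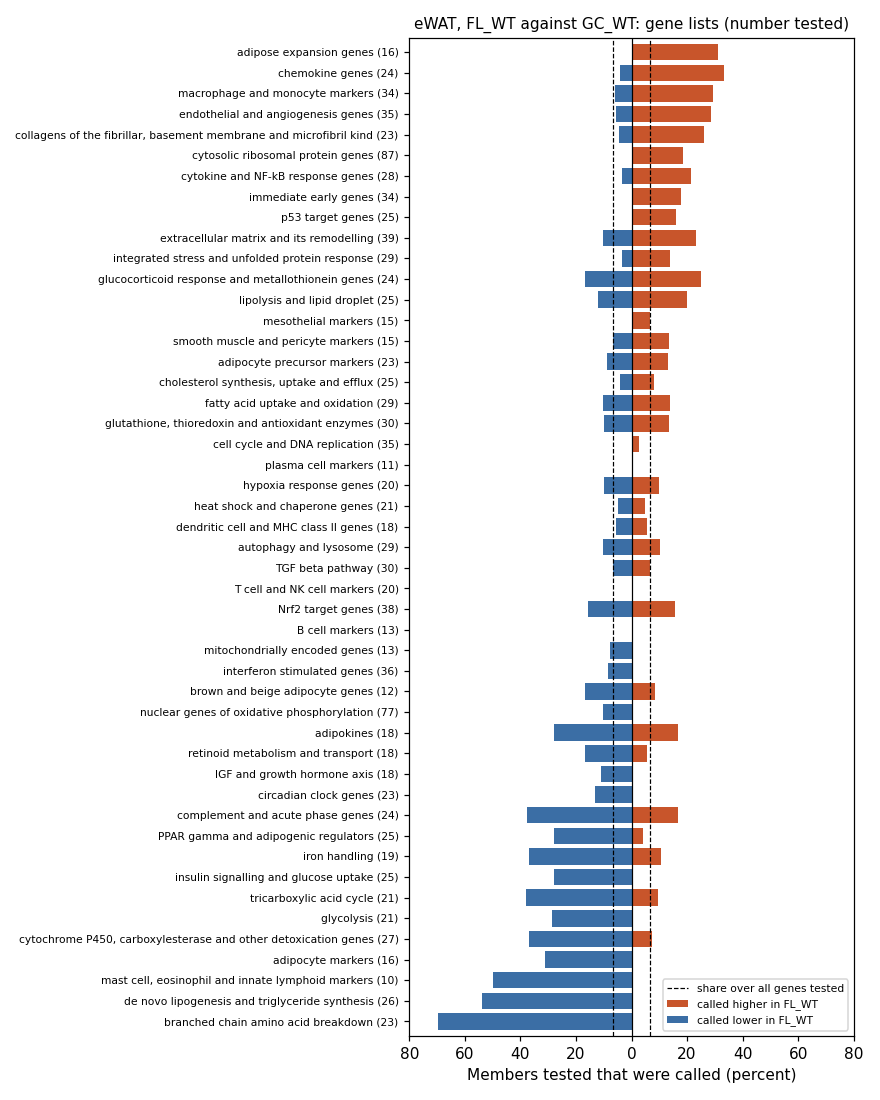
Percent of the tested members of each gene list that were called higher (orange, to the right) or lower (blue, to the left) in FL_WT than in GC_WT, with the number tested in brackets and the share over all tested genes as dashed lines. Lists with under 10 tested members are not drawn. Branched chain amino acid breakdown and fatty acid synthesis have the longest bars on the lower side, and the expansion, chemokine and macrophage lists on the higher side.

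Genes of fatty acid and triglyceride synthesis were lower in flight. Of 26 tested members, 14 were called lower (53.8 percent, against 6.78 percent of all genes) and none higher (0, 0 and 0), with a list median of -0.72 on the log2 scale. Fasn, the fatty acid synthase that builds palmitate, lies on chromosome 11 at 120805846 to 120824547 of GRCm38, on the minus strand, and was 3.71-fold lower. It measured 678 to 1444 TPM (median 965) in GC_WT and 173 to 441 TPM (median 263) in FL_WT (log2 fold change -1.89 ± 0.30, adjusted p = 0.000226), and every flight library lay below every ground library. Acaca, the acetyl-CoA carboxylase that commits acetyl-CoA to the pathway, measured 125 to 218 TPM (median 153) in GC_WT and 76.4 to 114 TPM (median 79.9) in FL_WT (log2 fold change -0.997 ± 0.18, adjusted p = 0.000723), again without overlap. Aacs, which activates acetoacetate in the cytosol for lipid synthesis, measured 157 to 231 TPM (median 205) in GC_WT and 64.1 to 140.2 TPM (median 74.5) in FL_WT (log2 fold change -1.28 ± 0.20, adjusted p = 0.000169). Scd1, the desaturase that makes oleate, is among the most abundant transcripts of this tissue, and it measured 9091 to 12330.0 TPM (median 9994) in GC_WT and 3766 to 6285 TPM (median 5792) in FL_WT (log2 fold change -1.06 ± 0.16, adjusted p = 0.000186). The desaturase Fads1, which acts on polyunsaturated chains, measured 50.9 to 73.9 TPM (median 64.9) in GC_WT and 28.2 to 47.4 TPM (median 39.4) in FL_WT (log2 fold change -0.85 ± 0.14, adjusted p = 0.000246). For Aacs, Scd1 and Fads1 as well, no flight mouse reached the ground range.

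Srebf1, which encodes SREBP1 and so the regulator of several of these enzymes, was lower by a smaller amount, at 159 to 230.4 TPM (median 183) in GC_WT and 81.5 to 198 TPM (median 110.4) in FL_WT (log2 fold change -0.72 ± 0.18, adjusted p = 0.0088). The groups overlapped through FL07 alone, which reached into the ground range. The enzymes Acly, Elovl6 and Me1, which supply acetyl-CoA, elongate palmitate and supply NADPH, did not pass the test (-0.56 ± 0.31, adjusted p = 0.264 for Acly, -0.60 ± 0.31, adjusted p = 0.218 for Elovl6 and -0.44 ± 0.16, adjusted p = 0.0641 for Me1). G6pdx, which supplies NADPH through the pentose phosphate pathway, went the other way, as described with the Nrf2 targets below.

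**Figure D3:**
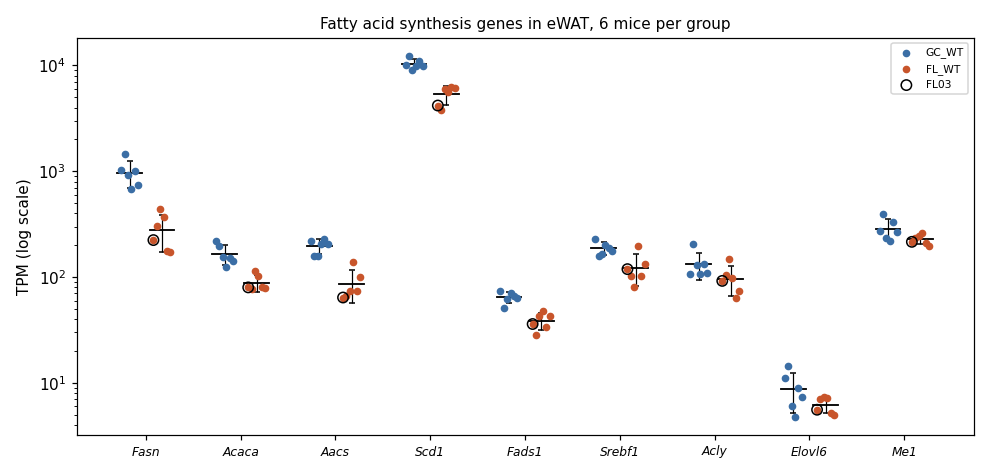
TPM (log scale) of 9 fatty acid synthesis genes in each eWAT library, GC_WT in blue and FL_WT in orange, with the mean and SD as black lines and FL03 ringed. The groups are separate for Fasn, Acaca, Aacs, Scd1 and Fads1, overlap by 1 flight library for Srebf1, and overlap broadly for Acly, Elovl6 and Me1.

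Among 16 genes that define the mature adipocyte, 5 were called lower and none higher (1, 1 and 2), and the lower ones were Cfd, Lpl, Car3, Retn and Pparg. Cfd, the serine protease adipsin (complement factor D), was 2.43-fold lower, at 15868 to 29239.5 TPM (median 22385) in GC_WT and 7318 to 14568 TPM (median 8894) in FL_WT (log2 fold change -1.28 ± 0.19, adjusted p = 0.000167), without overlap. Lpl, lipoprotein lipase, measured 3354 to 5065 TPM (median 4466) in GC_WT and 2712 to 3459.8 TPM (median 3265) in FL_WT (log2 fold change -0.55 ± 0.11, adjusted p = 0.00266). Pparg, the master regulator of adipocyte genes, measured 188 to 260.4 TPM (median 219) in GC_WT and 138 to 191 TPM (median 179) in FL_WT (log2 fold change -0.44 ± 0.09, adjusted p = 0.00364). For Lpl and Pparg the ranges touched, with most flight mice below the ground range. Car3, a carbonic anhydrase of fat cells, and Retn, resistin, changed by -0.54 ± 0.12, adjusted p = 0.00368 and -0.52 ± 0.11, adjusted p = 0.00387. Other hallmark genes did not pass the test. Adipoq (adiponectin) measured 4457 to 5804 TPM (median 4888) in GC_WT and 3989 to 5067 TPM (median 4494) in FL_WT (-0.22 ± 0.11, adjusted p = 0.181), Fabp4 (the fatty acid binding protein aP2) gave 0.21 ± 0.11, adjusted p = 0.219, and Lep (leptin) 0.34 ± 0.20, adjusted p = 0.293. Leptin was spread widely among ground mice, 291 to 1147 TPM, and narrowly among flight mice, 881 to 1135 TPM.

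Several detoxication enzymes fell, some by large amounts. Of 27 tested members, 10 were called lower (37.04 percent) and 2 higher. Cyp2f2, a P450 enzyme best known from lung airways, had the largest fall of any gene named here, at 44.7 to 206 TPM (median 76.3) in GC_WT and 1.26 to 5.19 TPM (median 3.18) in FL_WT (log2 fold change -4.999 ± 0.47, adjusted p = 1.35e-06). Cyp2e1 is a far more abundant transcript and fell 4.02-fold. It encodes an enzyme that oxidises ethanol, acetone and other small molecules, and it measured 5067 to 10479 TPM (median 7349) in GC_WT and 1245 to 3659.8 TPM (median 1646) in FL_WT (log2 fold change -2.01 ± 0.26, adjusted p = 3.75e-05). Fmo1, a flavin monooxygenase, measured 248 to 349 TPM (median 275) in GC_WT and 123 to 221 TPM (median 151) in FL_WT (log2 fold change -0.94 ± 0.14, adjusted p = 0.000111). Aldh2, the mitochondrial aldehyde dehydrogenase, measured 729 to 945 TPM (median 861) in GC_WT and 471 to 688 TPM (median 607) in FL_WT (log2 fold change -0.59 ± 0.10, adjusted p = 0.000294). The sulfotransferase Sult1a1 fell as well (-0.57 ± 0.12, adjusted p = 0.00331). All of these had separate groups. In the opposite direction, the fatty acid hydroxylase Cyp4b1 rose, at 86.4 to 125 TPM (median 111) in GC_WT and 141 to 195 TPM (median 185) in FL_WT (log2 fold change 0.60 ± 0.13, adjusted p = 0.00318), as did Cyp2d22 (0.51 ± 0.11, adjusted p = 0.00424). Tst, the mitochondrial thiosulfate sulfurtransferase rhodanese, is no member of that list but was among the strongest falls of all, at 37.2 to 118 TPM (median 60.1) in GC_WT and 8.26 to 26.1 TPM (median 10.04) in FL_WT (log2 fold change -2.55 ± 0.30, adjusted p = 1.51e-05), and FL07 (26.1 TPM) was the flight mouse nearest to ground.

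Genes for releasing and burning stored lipid moved in both directions. Of 25 lipolysis and lipid droplet genes, 5 were called higher and 3 lower, and of 29 genes of fatty acid uptake and oxidation, 4 and 3. By limma on log2(TPM + 1), the counts were 6 and 1 of 23, and 8 and 2 of 28. The near-even balance thus held on the edgeR scale only. Aqp7, the channel through which adipocytes release glycerol, was 1.87-fold higher, at 97.9 to 112 TPM (median 107) in GC_WT and 181 to 248 TPM (median 214) in FL_WT (log2 fold change 0.90 ± 0.12, adjusted p = 4.36e-05). Angptl4, a fasting-induced inhibitor of lipoprotein lipase, measured 262 to 409 TPM (median 312) in GC_WT and 497 to 704 TPM (median 559.8) in FL_WT (log2 fold change 0.77 ± 0.16, adjusted p = 0.00234). Mgll, which cleaves the last fatty acid from monoglyceride, measured 633 to 777 TPM (median 687) in GC_WT and 896 to 1156 TPM (median 1038) in FL_WT (log2 fold change 0.48 ± 0.09, adjusted p = 0.000989). For all of these every flight mouse was above every ground mouse. Hilpda, an inhibitor of the droplet lipase ATGL, was also higher (0.65 ± 0.18, adjusted p = 0.0183). Pnpla2, which encodes ATGL itself, was not called (-0.19 ± 0.12, adjusted p = 0.336). On the lower side was Adra2a (-1.66 ± 0.34, adjusted p = 0.00266), the receptor through which catecholamines restrain lipolysis. Its level was near the floor, at a mean of 0.95 TPM in GC_WT and 0.323 TPM in FL_WT, and the groups overlapped. Abhd5 (-0.39 ± 0.12, adjusted p = 0.0365), the coactivator of ATGL, was lower too, as was the seipin gene Bscl2, which is needed to form droplets. Bscl2 fell without overlap, at 339 to 375 TPM (median 354) in GC_WT and 234 to 272 TPM (median 254) in FL_WT (log2 fold change -0.58 ± 0.08, adjusted p = 6.9e-05). The call of Hilpda was lost without FL08 (log2 fold change 0.54 to 0.81 with 1 library left out). The call of Abhd5 was lost without any of FL03, FL05, FL06, FL08, FL10, GC03, GC07 or GC08 (log2 fold change -0.44 to -0.32 with 1 library left out).

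Pdk4, the kinase that holds pyruvate dehydrogenase inactive when fat is the fuel, was 2.40-fold higher, at 13.6 to 27.6 TPM (median 22.4) in GC_WT and 28.7 to 87.5 TPM (median 56.4) in FL_WT (log2 fold change 1.26 ± 0.34, adjusted p = 0.0156). The groups were separate, by a narrow margin. Fabp5, a fatty acid binding protein of fat cells and macrophages, measured 111 to 203 TPM (median 139) in GC_WT and 198 to 338 TPM (median 272) in FL_WT (log2 fold change 0.77 ± 0.16, adjusted p = 0.00222), Acaa1b, a peroxisomal thiolase, rose by 0.58 ± 0.14, adjusted p = 0.00634, and Cpt1a, which admits fatty acids to mitochondria, by 0.47 ± 0.15, adjusted p = 0.0399. Against these, the mitochondrial enzymes Cpt2 (-0.46 ± 0.11, adjusted p = 0.00849) and Echs1 (-0.50 ± 0.10, adjusted p = 0.00249) and the thiolase Acaa1a (-0.23 ± 0.06, adjusted p = 0.00856) were lower. The call of Cpt1a was lost without any of FL03, FL05, FL08, GC03, GC07, GC08 or GC10 (log2 fold change 0.40 to 0.56 with 1 library left out). Abcg1, which exports cholesterol, had one of the smallest adjusted p values in the table and rose 2.93-fold, at 14.9 to 22.6 TPM (median 18.5) in GC_WT and 50.8 to 64.8 TPM (median 62.2) in FL_WT (log2 fold change 1.55 ± 0.13, adjusted p = 2.64e-07), with the groups far apart. The other 24 genes of cholesterol handling held 2 calls, Hmgcs1 (0.50 ± 0.16, adjusted p = 0.0368) and Scarb1 (-0.38 ± 0.11, adjusted p = 0.0225), and the list had 2 higher and 3 lower by DESeq2 and 1 to 2 higher and 0 to 3 lower with 1 library left out. The call of Hmgcs1 was lost without any of FL03, FL05, FL08, FL10, GC03, GC06, GC07, GC08 or GC10 (log2 fold change 0.43 to 0.62 with 1 library left out). The call of Scarb1 was lost without any of FL03, FL05 or GC03 (log2 fold change -0.41 to -0.33 with 1 library left out).

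Branched chain amino acid breakdown was the list with the largest share of calls. Of 23 tested members, 16 were called lower (69.6 percent) and none higher (0, 0 and 0), 22 of 23 had a value below 0, and the list median was -0.36. The falls were moderate, from -0.27 to -0.89 on the log2 scale, and reached along the pathway. Bcat2, the mitochondrial transaminase of the first step, measured 217 to 342 TPM (median 275) in GC_WT and 125 to 209.6 TPM (median 152) in FL_WT (log2 fold change -0.85 ± 0.14, adjusted p = 0.000414). Bckdha, a subunit of the dehydrogenase complex of the second step, measured 179 to 205 TPM (median 191) in GC_WT and 129 to 179.9 TPM (median 155) in FL_WT (log2 fold change -0.41 ± 0.10, adjusted p = 0.00623). In the leucine branch, Ivd (isovaleryl-CoA dehydrogenase) measured 138 to 184 TPM (median 165) in GC_WT and 79.5 to 145 TPM (median 105) in FL_WT (log2 fold change -0.71 ± 0.11, adjusted p = 0.00024). Mccc1 (a methylcrotonyl-CoA carboxylase subunit) measured 135 to 181 TPM (median 136) in GC_WT and 71.7 to 112 TPM (median 79.9) in FL_WT (log2 fold change -0.89 ± 0.12, adjusted p = 5.11e-05). In the isoleucine and valine branches, Acadsb changed by -0.59 ± 0.09, adjusted p = 0.000159 and Pccb, of propionyl-CoA carboxylase, by -0.45 ± 0.07, adjusted p = 0.000306. The groups were separate for Bcat2 and Mccc1 and met at their edges for Bckdha and Ivd. Leaving out 1 library at a time left 11 to 18 members called lower.

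Other mitochondrial lists held fewer calls, to be read against the 6.78 percent of all genes called lower. Of 21 genes of the tricarboxylic acid cycle, 8 were lower and 2 higher, the latter being Idh2 (0.31 ± 0.08, adjusted p = 0.0102) and Idh3a (0.32 ± 0.11, adjusted p = 0.0487). Pcx, the pyruvate carboxylase that adipocytes use to export acetyl units, measured 626 to 813 TPM (median 708) in GC_WT and 388 to 576 TPM (median 439) in FL_WT (log2 fold change -0.75 ± 0.12, adjusted p = 0.000322). Suclg2, a succinyl-CoA synthetase subunit, measured 45.2 to 56.6 TPM (median 52.99) in GC_WT and 32.6 to 45.7 TPM (median 34.7) in FL_WT (log2 fold change -0.62 ± 0.08, adjusted p = 5.11e-05). In both genes FL07 stood nearest to the ground mice, at 576 and 45.7 TPM. The count of 8 fell to 5 without FL03, GC03 or GC08, and the higher count to 1 where Idh3a lost its call. The call of Idh3a was lost without any of FL05, FL06, FL07, FL08, GC03, GC05, GC06, GC07 or GC10 (log2 fold change 0.29 to 0.37 with 1 library left out). Among 77 nuclear genes of oxidative phosphorylation, 8 were lower (10.4 percent, with a list median of -0.11), and 5 were lower without FL03, FL10 or GC03, with Uqcrc2 of complex III (-0.41 ± 0.08, adjusted p = 0.00095) as an example, and none higher (0, 0 and 2). Of 13 genes of the mitochondrial genome, only mt-Nd6 was called (-0.51 ± 0.14, adjusted p = 0.016), and 2 were without GC10. Of 21 glycolytic genes, 6 were lower and none higher (2, 1 and 3), the lower ones including Hk2, Ldha (-0.40 ± 0.09, adjusted p = 0.00468) and both pyruvate dehydrogenase E1 genes Pdha1 (-0.42 ± 0.09, adjusted p = 0.00356) and Pdhb (-0.54 ± 0.13, adjusted p = 0.00621).

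Insulin signalling and glucose uptake held 7 lower members of 25 tested and none higher (1, 0 and 1). Hk2, the hexokinase induced by insulin, measured 48.8 to 56.8 TPM (median 52.6) in GC_WT and 26.2 to 40.8 TPM (median 35.2) in FL_WT (log2 fold change -0.70 ± 0.18, adjusted p = 0.0131), with separate groups. Gys1 (muscle-type glycogen synthase), Tbc1d4 (AS160, which gates GLUT4 movement) and Foxo1 followed, with -0.63 ± 0.10, adjusted p = 0.000365 for Gys1, -0.49 ± 0.08, adjusted p = 0.000469 for Tbc1d4 and -0.52 ± 0.14, adjusted p = 0.0154 for Foxo1. FL07 lay above the other flight mice in 2 of these genes, with 93.5 TPM of Gys1 and 32.95 TPM of Tbc1d4. Slc2a4, the insulin-responsive glucose transporter GLUT4, and Irs1 were not called (-0.34 ± 0.12, adjusted p = 0.0761 and -0.22 ± 0.19, adjusted p = 0.498). Among secreted and systemic factors, Nampt, which makes NAD precursors, fell from 84.9 to 49.98 TPM at the median (log2 fold change -0.79 ± 0.11, adjusted p = 9.05e-05). Igf1, insulin-like growth factor 1, measured 207 to 323 TPM (median 246) in GC_WT and 140.2 to 198 TPM (median 161) in FL_WT (log2 fold change -0.88 ± 0.16, adjusted p = 0.00101). The groups overlapped in neither gene.

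Several genes that mark the expanding fat cell in mice rose. Of 16 such genes, 5 were called higher and none lower (2, 0 and 0), with a list median of 0.31. Sfrp5, a secreted Wnt inhibitor made by adipocytes, was 5.14-fold higher, at 10.9 to 159.5 TPM (median 67.2) in GC_WT and 214 to 630.1 TPM (median 382) in FL_WT (log2 fold change 2.36 ± 0.38, adjusted p = 0.000298), with no overlap although both groups spread widely. Mest, an imprinted gene whose level follows fat mass, measured 23.3 to 244 TPM (median 82.2) in GC_WT and 216 to 607 TPM (median 399) in FL_WT (log2 fold change 1.87 ± 0.45, adjusted p = 0.00795), and 3 flight mice lay under the highest ground mouse. Peg3, another imprinted gene, measured 3.99 to 13.7 TPM (median 9.41) in GC_WT and 17.9 to 62.3 TPM (median 39.9) in FL_WT (log2 fold change 1.97 ± 0.33, adjusted p = 0.000329). Cavin1, which builds caveolae, measured 759 to 1068 TPM (median 946) in GC_WT and 1293 to 1685 TPM (median 1505) in FL_WT (log2 fold change 0.60 ± 0.10, adjusted p = 0.000258). Ccnd1 (cyclin D1) measured 8.84 to 14.4 TPM (median 12.3) in GC_WT and 16.1 to 33.1 TPM (median 24.4) in FL_WT (log2 fold change 0.94 ± 0.17, adjusted p = 0.000744). Peg3, Cavin1 and Ccnd1 had separate groups. Bmp3, another member of the list, was not called (0.78 ± 0.30, adjusted p = 0.0849). The count of 5 ranged from 5 to 7 when 1 library was left out. Wisp2, a secreted factor of fat precursors, is outside that list and was picked among all genes by its change in these data. It was low in every library, at 0.54 to 4.88 TPM (median 1.86) in GC_WT and 6.25 to 15.1 TPM (median 9.71) in FL_WT (log2 fold change 2.09 ± 0.48, adjusted p = 0.00528).

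Vessel genes rose in part. Of 35 endothelial and angiogenesis genes, 10 were called higher and 2 lower (8 to 11 and 2 with 1 library left out). The tight junction gene Cldn5 was 2.58-fold higher, at 48.8 to 132 TPM (median 86.5) in GC_WT and 135 to 317 TPM (median 236) in FL_WT (log2 fold change 1.37 ± 0.23, adjusted p = 0.000373). The endothelial cadherin Cdh5 (0.42 ± 0.10, adjusted p = 0.00912), the VEGF receptor Kdr (0.42 ± 0.11, adjusted p = 0.0127) and the TGF-beta coreceptor Eng (0.49 ± 0.11, adjusted p = 0.00461) rose by smaller steps, Cldn5, Cdh5 and Kdr without overlap. The lower members were Angpt1, the ligand that steadies vessels through TIE2, at 5.7 to 17.6 TPM (median 11.4) in GC_WT and 1.7 to 5.13 TPM (median 2.48) in FL_WT (log2 fold change -2.13 ± 0.34, adjusted p = 0.000274), and the endothelial nitric oxide synthase gene Nos3 (-0.60 ± 0.16, adjusted p = 0.0136). Vegfa was not called (0.10 ± 0.13, adjusted p = 0.673).

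Of 39 genes of the matrix and its remodelling, 9 were called higher and 4 lower. Among the higher ones were 4 genes of secreted proteins that tune how cells hold to matrix. Thbs1 (thrombospondin 1) measured 24.4 to 150.4 TPM (median 61.9) in GC_WT and 246 to 477 TPM (median 335) in FL_WT (log2 fold change 2.22 ± 0.46, adjusted p = 0.00275). Thbs2 measured 5.73 to 28.2 TPM (median 9.7) in GC_WT and 33.00 to 102 TPM (median 60.4) in FL_WT (log2 fold change 2.22 ± 0.32, adjusted p = 0.000101). Tnc (tenascin C) measured 1.44 to 2.22 TPM (median 1.91) in GC_WT and 4.56 to 8.64 TPM (median 5.62) in FL_WT (log2 fold change 1.65 ± 0.20, adjusted p = 1.7e-05). Postn (periostin) measured 50.3 to 67.7 TPM (median 58.7) in GC_WT and 91.8 to 196 TPM (median 134) in FL_WT (log2 fold change 1.07 ± 0.12, adjusted p = 9.14e-06). In all 4 genes, the lowest flight mouse was above the highest ground mouse. The lower members were Mmp2, a gelatinase, at 25.6 to 39.1 TPM (median 32.3) in GC_WT and 10.5 to 23.8 TPM (median 18.2) in FL_WT (log2 fold change -0.96 ± 0.16, adjusted p = 0.000464), the proteoglycan gene Dcn (-0.66 ± 0.15, adjusted p = 0.00483), Timp2 (-0.62 ± 0.15, adjusted p = 0.00701) and Lama2 (-0.58 ± 0.13, adjusted p = 0.00438).

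Collagen genes depended more on single libraries. Of 23 tested, 6 were higher, including Col6a1 (0.76 ± 0.17, adjusted p = 0.00528) and Col8a1 (0.81 ± 0.18, adjusted p = 0.00424), and the 1 lower was Col6a6 (-0.78 ± 0.26, adjusted p = 0.0497). The 6 became 3 without FL03, 3 without GC03 and 2 without GC07. The call of Col6a6 was lost without any of FL05, FL06, FL08, FL10, GC03, GC05, GC06, GC08 or GC10 (log2 fold change -0.90 to -0.65 with 1 library left out). The fibrillar collagens of scar tissue were not called. Col1a1 measured 32.4 to 70.6 TPM (median 49.4) in GC_WT and 40.9 to 212 TPM (median 73.8) in FL_WT (0.73 ± 0.30, adjusted p = 0.111) and Col3a1 180.3 to 329 TPM (median 229) in GC_WT and 148 to 659.8 TPM (median 219) in FL_WT (0.09 ± 0.26, adjusted p = 0.863), and FL03 held the highest value of both, 212 and 659.8 TPM. Without FL03, Col3a1 gave -0.27 (adjusted p = 0.465).

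**Figure D4:**
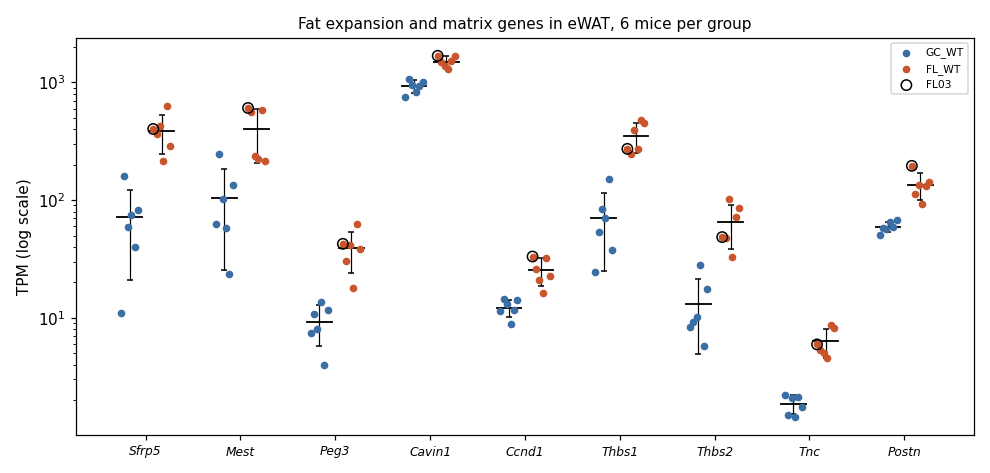
TPM (log scale) of 5 fat expansion genes and 4 matrix genes in each eWAT library, GC_WT in blue and FL_WT in orange, with the mean and SD as black lines and FL03 ringed. The groups are separate for all but Mest, and FL03 is the highest flight library for Mest, Cavin1, Ccnd1 and Postn.

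Some chemokine and macrophage genes rose in flight, in a number that depended on which mice were counted. Of 24 chemokine genes, 8 were called higher (33.3 percent, against 6.65 percent of all genes) and 1 lower, with 5 higher without FL06. The monocyte attractants Ccl2 and Ccl7 had the largest folds, Ccl2 at 1.79 to 11.2 TPM (median 4.15) in GC_WT and 8.35 to 59.6 TPM (median 35.3) in FL_WT (log2 fold change 2.78 ± 0.43, adjusted p = 0.000191) and Ccl7 at 1.67 to 7.69 TPM (median 3.52) in GC_WT and 6.92 to 38.3 TPM (median 28.02) in FL_WT (log2 fold change 2.70 ± 0.40, adjusted p = 0.000129). Flight and ground overlapped in both through FL07, the flight mouse with the lowest values. Cxcl1, a neutrophil attractant, was low everywhere and separate, at 0.38 to 1.8 TPM (median 0.955) in GC_WT and 2.18 to 15.9 TPM (median 4.61) in FL_WT (log2 fold change 2.51 ± 0.42, adjusted p = 0.000347). The lower member was Ccl27a (-0.57 ± 0.16, adjusted p = 0.021), whose counts are uncertain because near-identical copies of it exist in the mouse genome. The call of Ccl27a was lost without any of FL06, FL08 or GC10 (log2 fold change -0.67 to -0.48 with 1 library left out).

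Of 34 macrophage and monocyte markers, 10 were called higher (29.4 percent), 2 lower and 22 neither, the lower ones being Cd14 (-0.64 ± 0.15, adjusted p = 0.00528) and Retnla (-0.44 ± 0.14, adjusted p = 0.0401). The call of Retnla was lost without any of FL03, FL05, FL06, FL07, FL08, GC05, GC07 or GC10 (log2 fold change -0.50 to -0.35 with 1 library left out). Without FL03, whose B cell, plasma cell and macrophage sums stood above all others, 3 of 34 were higher, near the share of all genes, and 6, 5 and 6 were higher without GC03, GC06 and GC07. Mmp12 (macrophage elastase) measured 2.3 to 12.2 TPM (median 5.42) in GC_WT and 14.3 to 34.6 TPM (median 26.1) in FL_WT (log2 fold change 1.98 ± 0.52, adjusted p = 0.0132), Itgax (CD11c) 2.08 to 2.86 TPM (median 2.37) in GC_WT and 2.95 to 7.41 TPM (median 5.76) in FL_WT (log2 fold change 1.12 ± 0.27, adjusted p = 0.0081) and Cd68, a lysosomal protein of macrophages, 38.1 to 65.2 TPM (median 45.6) in GC_WT and 69.00 to 172 TPM (median 82.8) in FL_WT (log2 fold change 0.86 ± 0.17, adjusted p = 0.00186). Each had separate groups. Without FL03, the log2 fold changes were 2.02 for Mmp12 (adjusted p = 0.0183), 1.07 for Itgax (adjusted p = 0.0171) and 0.67 for Cd68 (adjusted p = 0.00332). The general macrophage marker Adgre1 (F4/80) was not called (0.28 ± 0.14, adjusted p = 0.21). Whether the B cell RNA of FL03 had a part in the macrophage calls was not tested beyond the values without that library.

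Of 28 cytokine and NF-kB response genes, 6 were higher and 1 lower, with Ptx3, a pattern recognition protein, at 0.56 to 1.84 TPM (median 0.89) in GC_WT and 0.69 to 8.15 TPM (median 4.68) in FL_WT (log2 fold change 2.04 ± 0.47, adjusted p = 0.00524) and Tnfaip2 at 0.68 ± 0.12, adjusted p = 0.000425. Lif (-0.77 ± 0.23, adjusted p = 0.0284) was the lower one. The call of Lif was lost without any of FL05, FL06, FL08, GC08 or GC10 (log2 fold change -0.85 to -0.68 with 1 library left out). Tnf itself was at the edge of detection and not called (0.74 ± 0.36, adjusted p = 0.186). Immediate early genes, which are transcribed within minutes of a stimulus to the cell, held 6 higher of 34 and none lower (1, 0 and 0), with 10 higher without FL07. Fos measured 1.95 to 6.67 TPM (median 5.05) in GC_WT and 7.07 to 23.9 TPM (median 13.9) in FL_WT (log2 fold change 1.61 ± 0.33, adjusted p = 0.00236) and Egr1 6.89 to 14.7 TPM (median 9.98) in GC_WT and 18.3 to 32.3 TPM (median 23.9) in FL_WT (log2 fold change 1.15 ± 0.24, adjusted p = 0.00317), both with separate groups. Fosl1 was nearly silent in ground mice, at 0.07 to 0.61 TPM (median 0.14) in GC_WT and 0.49 to 4.16 TPM (median 3.06) in FL_WT (log2 fold change 3.49 ± 0.66, adjusted p = 0.00111), and Maff changed by 1.295 ± 0.30, adjusted p = 0.0064.

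Mast cell genes fell. Of 10 markers of mast cells, eosinophils and innate lymphoid cells, 5 were lower and none higher (0, 0 and 0), and 4 of the lower ones are mast cell proteases held in granules. Mcpt4 measured 4.49 to 14.1 TPM (median 8.36) in GC_WT and 1.77 to 5.21 TPM (median 2.09) in FL_WT (log2 fold change -1.80 ± 0.37, adjusted p = 0.00217), Tpsb2 7.54 to 19.5 TPM (median 12.9) in GC_WT and 3.29 to 8.8 TPM (median 4.43) in FL_WT (log2 fold change -1.50 ± 0.31, adjusted p = 0.00282), Cma1 3.21 to 9.95 TPM (median 6.42) in GC_WT and 1.37 to 3.71 TPM (median 2) in FL_WT (log2 fold change -1.65 ± 0.35, adjusted p = 0.00282) and Cpa3 1.79 to 7.31 TPM (median 3.86) in GC_WT and 0.82 to 3.13 TPM (median 1.54) in FL_WT (log2 fold change -1.51 ± 0.37, adjusted p = 0.00831). In each of these FL03, the highest flight mouse, alone reached into the ground range, and the other 5 flight mice lay below all ground mice. The fifth was Klrg1 (-0.996 ± 0.33, adjusted p = 0.0444), a receptor of innate lymphoid and other lymphocytes. The call of Klrg1 was lost without any of FL05, FL06, FL07, FL10, GC06, GC07, GC08 or GC10 (log2 fold change -1.17 to -0.83 with 1 library left out). The count was 4 or 5 whichever library was left out.

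Complement and acute phase genes were lower more often than higher by edgeR, 9 against 4 of 24, and the higher count was 2 without FL03, GC03 or GC07. By limma on log2(TPM + 1), 5 were lower and 4 higher of 23, so that the imbalance depended on the scale. Besides Cfd, C6, a component of the membrane attack complex, measured 28.3 to 50.4 TPM (median 41.98) in GC_WT and 13.1 to 20.5 TPM (median 15.3) in FL_WT (log2 fold change -1.43 ± 0.18, adjusted p = 2.61e-05), with separate groups. Iron handling genes were lower in 7 and higher in 2 of 19 (4 lower without FL08 or FL10, 1 higher without FL03 or FL08). By limma, 5 were lower and 4 higher. The ferrireductase Steap3 measured 38.6 to 52.2 TPM (median 45.1) in GC_WT and 23.03 to 32.5 TPM (median 26.6) in FL_WT (log2 fold change -0.83 ± 0.10, adjusted p = 2.67e-05), the ferroxidase ceruloplasmin (Cp) changed by -0.64 ± 0.12, adjusted p = 0.00102 and Trf, transferrin, by -0.53 ± 0.11, adjusted p = 0.00273. Tfrc, the transferrin receptor, gave -0.81 ± 0.25, adjusted p = 0.0358. The call of Tfrc was lost without any of FL03, FL05, FL06, FL08, FL10, GC03, GC07 or GC08 (log2 fold change -1.04 to -0.70 with 1 library left out).

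Nrf2 is the transcription factor that induces antioxidant and conjugating enzymes. Its own transcript, Nfe2l2, changed by -0.26 ± 0.08, adjusted p = 0.043. The call of Nfe2l2 was lost without any of FL05, FL06, FL08, FL10, GC03, GC05, GC06, GC07 or GC10 (log2 fold change -0.31 to -0.21 with 1 library left out). Of 38 listed target genes, 6 were higher (0.42 to 0.79 on the log2 scale) and 6 lower (-0.31 to -1.18), with a median of -0.04. The NADPH-producing G6pdx was 1.67-fold higher, at 146 to 219.8 TPM (median 186) in GC_WT and 266 to 378 TPM (median 325) in FL_WT (log2 fold change 0.74 ± 0.10, adjusted p = 3.75e-05), while the glutathione conjugate exporter Abcc1 was lower, at 19.9 to 25.2 TPM (median 23.1) in GC_WT and 13.5 to 19.9 TPM (median 16.4) in FL_WT (log2 fold change -0.55 ± 0.08, adjusted p = 6.97e-05). Neither gene had overlapping groups. Both also changed in flight in Nrf2-KO eWAT, G6pdx by 0.67 (adjusted p = 0.000417) and Abcc1 by -0.52 (adjusted p = 0.000513). Of the 38 targets, 4 were called higher and 5 lower in the KO, where 3.73 percent of all genes were higher and 3.98 percent lower. Hmox1, heme oxygenase 1, gave 0.59 ± 0.17, adjusted p = 0.0215, with 106 TPM in FL03. The call of Hmox1 was lost without FL03 or FL08 (log2 fold change 0.42 to 0.68 with 1 library left out). Among 30 other antioxidant enzymes, 4 were higher and 3 lower (2 and 3 without the filter on low counts, 2 higher without FL03, FL05, FL06, FL08 or GC03, and 1 lower without FL03). Extracellular superoxide dismutase, Sod3, measured 195 to 331 TPM (median 258) in GC_WT and 375 to 539 TPM (median 487) in FL_WT (log2 fold change 0.72 ± 0.10, adjusted p = 0.000122). The methionine sulfoxide reductase Msrb1, a selenoprotein, measured 163 to 228 TPM (median 200.2) in GC_WT and 115 to 141 TPM (median 122) in FL_WT (log2 fold change -0.78 ± 0.10, adjusted p = 4.36e-05). The groups were apart in both genes.

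Clock-controlled genes gave 3 lower calls among 23 tested and none higher (0, 0 and 0), with a list median of -0.44. The 3 were Hlf (-0.80 ± 0.19, adjusted p = 0.00634), Tef (-0.75 ± 0.20, adjusted p = 0.0142) and Rora (-0.32 ± 0.11, adjusted p = 0.0494), of which Hlf and Tef encode transcription factors of the PAR bZIP family. The call of Rora was lost without any of FL03, FL05, FL07, FL08, FL10, GC03, GC05, GC06, GC07, GC08 or GC10 (log2 fold change -0.36 to -0.28 with 1 library left out). Dbp, the third of that family, spread from 16.8 to 105 TPM among ground mice alone and was not called (-1.29 ± 0.64, adjusted p = 0.204), nor was Per1 (-0.79 ± 0.45, adjusted p = 0.283). Usp2, a rhythmic deubiquitinase outside the list, was picked among all genes by its change in these data, so it adds no support to the list. It measured 18.8 to 36.2 TPM (median 27.3) in GC_WT and 4.5 to 11.3 TPM (median 5.7) in FL_WT (log2 fold change -2.01 ± 0.21, adjusted p = 4.31e-06). The hour of dissection is not given in the sources used here. Of 24 glucocorticoid response and metallothionein genes, 6 were higher and 4 lower (6 and 9 with the mouse number as a block). Mt2, a metallothionein induced by metals and glucocorticoids, measured 94.1 to 277 TPM (median 200.4) in GC_WT and 177 to 859 TPM (median 509.9) in FL_WT (log2 fold change 1.27 ± 0.32, adjusted p = 0.0109), with FL and GC mice overlapping, and Hsd11b1, which regenerates active glucocorticoid, rose by 0.63 ± 0.13, adjusted p = 0.00267. The glucocorticoid target Klf9 fell by 0.63 ± 0.14, adjusted p = 0.00555 on the log2 scale.

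Several genes with the smallest adjusted p or the largest separate changes fell outside these lists. Zfyve28, which encodes an endosomal zinc finger protein, was low in ground mice, at 0.65 to 1.83 TPM (median 1.14) in GC_WT and 4.58 to 8.63 TPM (median 6.28) in FL_WT (log2 fold change 2.39 ± 0.20, adjusted p = 2.64e-07), with the flight mice far above. Oplah, which recycles oxoproline in glutathione metabolism, measured 42.2 to 54.95 TPM (median 45.5) in GC_WT and 22.4 to 32.4 TPM (median 24.5) in FL_WT (log2 fold change -0.997 ± 0.09, adjusted p = 1.01e-06). The lysosomal-type galactosidase Glb1l2 measured 254 to 313 TPM (median 260.1) in GC_WT and 133 to 192 TPM (median 144) in FL_WT (log2 fold change -0.93 ± 0.09, adjusted p = 4.31e-06). Mfge8, a bridge for the uptake of dying cells that also acts on fatty acid uptake, measured 183 to 335 TPM (median 271) in GC_WT and 462 to 709 TPM (median 601) in FL_WT (log2 fold change 1.07 ± 0.12, adjusted p = 6.78e-06). Ubd, a ubiquitin-like modifier induced by cytokines, measured 1.45 to 3.36 TPM (median 2.6) in GC_WT and 5.47 to 15.4 TPM (median 11.01) in FL_WT (log2 fold change 1.96 ± 0.30, adjusted p = 0.000161). Specc1, Dusp3 and Ablim1 rose by 1.18 ± 0.12, 0.61 ± 0.06 and 0.57 ± 0.06. Hspb7, a small heat shock protein gene, rose by 1.68 ± 0.45, adjusted p = 0.0152.

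Large falls outside the lists also included Serpina3b (-1.92 ± 0.42, adjusted p = 0.00393), H1fx (-1.32 ± 0.25, adjusted p = 0.00108), Srpx (-1.23 ± 0.22, adjusted p = 0.000641) and Rgs2 (-1.49 ± 0.40, adjusted p = 0.0149). The call of Rgs2 was lost without GC03 (log2 fold change -1.63 to -1.09 with 1 library left out). Among loci with little known function, Gm13703 rose, at 0.29 to 4.23 TPM (median 2.38) in GC_WT and 6.45 to 26.8 TPM (median 10.6) in FL_WT (log2 fold change 2.61 ± 0.49, adjusted p = 0.000997). Gm13091 fell, at 17.7 to 67.3 TPM (median 31.6) in GC_WT and 2.43 to 13.6 TPM (median 5.07) in FL_WT (log2 fold change -2.65 ± 0.54, adjusted p = 0.00242). Neither had overlapping groups. In the annotation of the same genome build (GENCODE vM21, GRCm38), these loci lie antisense to Gpr155 and to Rere, and Gm37795 (1.39 ± 0.29, adjusted p = 0.00281) overlaps Mir34a. The claudin gene Cldn22 (-2.34 ± 0.27, adjusted p = 1.51e-05) overlaps Wwc2. The library kit marks strand, but whether the counting used it is not given in the sources used here, so reads of such pairs may be shared. Gm5627 also rose (1.28 ± 0.27, adjusted p = 0.00268).

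The lists not described so far held few calls or mixed ones. They are given as the number higher and the number lower of the number tested, each followed in brackets by its range when 1 library was left out. Adipokines gave 3 (2 to 3) and 5 (4 to 5) of 18. Among them Gdf15, a hormone of cell stress, was higher (2.17 ± 0.47, adjusted p = 0.00375). Its level was near the floor, at a mean of 0.207 TPM in GC_WT and 1.08 TPM in FL_WT, with overlapping groups. Rbp4, the retinol carrier, was lower (-0.54 ± 0.15, adjusted p = 0.0156). PPAR gamma targets and adipogenic regulators gave 1 (1 to 3) and 7 (6 to 7) of 25, and by limma 7 and 5, so that the balance turned with the scale. Retinoid metabolism gave 1 (0 to 1) and 3 (2 to 3) of 18 (2 and 1 by limma), adipocyte precursor markers 3 (3 throughout) and 2 (1 to 3) of 23, smooth muscle and pericyte markers 2 (1 to 3) and 1 (0 to 1) of 15 and the TGF-beta pathway 2 (0 to 2) and 2 (1 to 3) of 30. Brown and beige adipocyte genes gave 1 (0 to 1) and 2 (0 to 2) of 12, with Kcnk3 higher and the coactivator genes Ppargc1a and Ppargc1b lower, none in either direction without FL03, FL05, FL06 or GC08, and 1 higher and 0 lower by limma. Interferon stimulated genes gave 0 (0 to 1) and 3 (2 to 4) of 36, dendritic cell and MHC class II genes 1 (0 to 1) and 1 (0 to 1) of 18, the IGF axis 0 (0 throughout) and 2 (1 to 3) of 18, mesothelial markers 1 (1 throughout) and 0 (0 throughout) of 15, neutrophil markers 0 (0 throughout) and 0 (0 throughout) of 4 and erythroid markers 0 (0 throughout) and 1 (0 to 1) of 8.

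Stress lists, in the same form, gave 4 (2 to 6) and 1 (1 to 2) of 29 for the integrated stress response, 1 (1 throughout) and 1 (0 to 1) of 21 for heat shock genes, 2 (1 to 3) and 2 (2 to 3) of 20 for hypoxia, 4 (3 to 5) and 0 (0 to 1) of 25 for p53 targets and 3 (2 to 3) and 3 (3 throughout) of 29 for autophagy and lysosome. Cell cycle genes gave 1 (1 to 6) and 0 (0 throughout) of 35, with 6 higher without FL07. The integrated stress response count of 4 was 2 without FL03 or GC03. Cytosolic ribosomal protein genes gave 16 (2 to 19) and 0 (0 throughout) of 87, with 2 higher without FL05, 5 without GC08, 6 without GC03, 8 without FL03, GC06 or GC10, 9 without GC05 and 10 without FL08. With limma on log2(TPM + 1) their higher count was 59, and all members called by edgeR rose by at most 0.32 on the log2 scale. Skeletal muscle markers gave 0 (0 throughout) and 0 (0 to 1) of 7, with sums over all 15 listed genes of 146 to 479.9 TPM in GC_WT and 44.5 to 289 TPM in FL_WT.

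The flight response of Nrf2-KO eWAT was set beside that of WT from the same fit. Of the 2057 genes called in WT, 646 were also called in the KO in the same direction, which is 31.4 percent of the WT calls and 54.7 percent of the 1181 KO calls, and none in the opposite one. A test of the difference between the 2 responses called no gene by edgeR at an adjusted p under 0.05, with 1291 genes at an unadjusted p under 0.05, 16 genes called by DESeq2 and none by limma. Fatty acid synthesis genes fell in both genotypes, with 14 members lower in WT and 16 in the KO (where 3.98 percent of all genes were called lower and 3.73 percent higher) and medians of -0.72 and -0.87. Fasn changed by -2.38 ± 0.33, adjusted p = 0.000307 in the KO. The expansion genes Peg3 (2.001 ± 0.33, adjusted p = 0.0011) and Cavin1 (0.60 ± 0.10, adjusted p = 0.0011) passed in the KO too. So did the matrix genes Thbs1 (2.95 ± 0.49, adjusted p = 0.000969) and Thbs2 (2.28 ± 0.32, adjusted p = 0.000417). The other expansion genes called in WT did not pass in the KO, namely Sfrp5 (1.17, adjusted p = 0.0638), Mest (0.94, adjusted p = 0.219) and Ccnd1 (0.55, adjusted p = 0.0576).

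Other lists had fewer calls in the KO. Branched chain amino acid breakdown gave 16 lower members in WT and 1 in the KO (Mccc1, -0.47 ± 0.12, adjusted p = 0.0236), with medians of -0.36 and -0.03. In the KO, Bcat2 gave -0.27 ± 0.15, adjusted p = 0.293 and Ivd -0.18 ± 0.12, adjusted p = 0.374. The difference had an unadjusted p under 0.05 in 14 of the 23 members, against 1291 of all 15317 tested genes, and no member passed adjustment over all genes. The same held for 12 of 34 macrophage markers, of which the KO called none, and for 11 of 24 chemokine genes, of which the KO called 1, Cxcl1 (1.53 ± 0.43, adjusted p = 0.0307). A response that passed in WT and missed in the KO is thus not shown to differ between the genotypes for any of these genes.

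**Figure D5:**
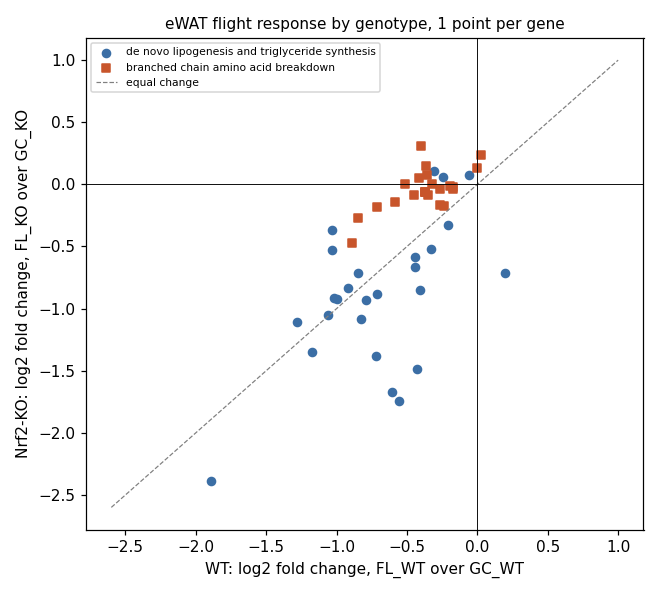
Log2 fold change of flight over ground in WT (horizontal) and Nrf2-KO (vertical) eWAT for the members of 2 lists, 1 point per gene, fatty acid and triglyceride synthesis as blue circles and branched chain amino acid breakdown as orange squares, with the line of equal change dashed. The synthesis genes scatter about the line, and the breakdown genes lie mostly above it, near 0 in the KO.

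The iBAT of the same 12 animals allowed the white depot's response to be tested against that of brown fat. Of 14892 genes tested in both tissues, 4.55 percent were called with a higher flight response in eWAT and 4.53 percent with a lower one. That balance rested on the scale, since 50.1 percent of the calls were in the higher direction by edgeR and 11.6 percent by limma on log2(TPM + 1), where the median flight response of all genes was 0.28 in iBAT against 0.01 by edgeR. Skeletal muscle markers summed to 9800 and 4717 TPM in the iBAT libraries of FL06 and FL08 and to at most 66.9 TPM in the other 10, and without both mice 370 genes were called higher and 390 lower in eWAT than in iBAT, against 678 and 675 with them. Within iBAT, 11.9 percent of all genes were called lower and 10.7 percent higher. Fatty acid synthesis genes fell in both depots, by a median of -0.72 in eWAT with 14 members lower and -1.25 in iBAT with 20 lower. Oxidative phosphorylation differed in extent, with 8 members lower in eWAT and 65 in iBAT, and in 22 members the response was called higher in eWAT and in 1 lower. Those counts were 7 and 0 without FL06 and FL08 and 8 and 4 by limma. For cholesterol handling, 12 of 25 members had a higher response in eWAT (9 without FL06 and FL08, 10 by limma), and the iBAT median was -0.84.

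Among genes called in eWAT, those with the smallest adjusted p for a higher response in eWAT included Gstm1, G6pdx, Fabp5, Deptor and Pold4. The glutathione transferase Gstm1 gave 0.79 ± 0.09 in eWAT and -0.45 ± 0.09 in iBAT (difference 1.24 ± 0.13, adjusted p = 2.62e-06), and G6pdx 0.73 ± 0.10 in eWAT and -0.86 ± 0.10 in iBAT (difference 1.60 ± 0.14, adjusted p = 9.72e-07). Fabp5 gave 0.76 ± 0.15 in eWAT and -1.05 ± 0.15 in iBAT (difference 1.82 ± 0.21, adjusted p = 1.25e-05). Deptor, which encodes an mTOR inhibitor that promotes fat cell formation, gave 0.92 ± 0.15 in eWAT and -0.89 ± 0.15 in iBAT (difference 1.81 ± 0.21, adjusted p = 1.25e-05), and Pold4, a subunit of DNA polymerase delta, gave 0.58 ± 0.13 in eWAT and -1.04 ± 0.15 in iBAT (difference 1.62 ± 0.20, adjusted p = 2.64e-05). Those with a lower response in eWAT included Oplah, with -0.999 ± 0.10 in eWAT and 0.16 ± 0.10 in iBAT (difference -1.16 ± 0.14, adjusted p = 2.24e-05), the phosphatase gene Ppm1m, with -0.48 ± 0.07 in eWAT and 0.19 ± 0.07 in iBAT (difference -0.67 ± 0.09, adjusted p = 0.000122), and the ribosome assembly gene Nol6, with -0.53 ± 0.09 in eWAT and 0.40 ± 0.09 in iBAT (difference -0.93 ± 0.13, adjusted p = 0.000131). Ankrd52 gave -0.32 ± 0.10 in eWAT and 0.80 ± 0.10 in iBAT (difference -1.11 ± 0.14, adjusted p = 2.47e-05) and the kinase gene Mark2 -0.28 ± 0.09 in eWAT and 0.54 ± 0.09 in iBAT (difference -0.82 ± 0.12, adjusted p = 0.000274). The call of Ankrd52 within eWAT was lost without any of FL03, FL05, FL06, FL08, FL10, GC03, GC06, GC07, GC08 or GC10 (log2 fold change -0.37 to -0.26 with 1 library left out). That of Mark2 was lost without any of FL03, FL05, FL06, GC06, GC07 or GC10 (log2 fold change -0.33 to -0.23 with 1 library left out). Each of the 5 with a higher response in eWAT rose there and fell in iBAT past the threshold. All 10 differences stayed past the threshold, with the same sign, under every alternative fit, including the one without FL06 and FL08 and the one by limma on log2(TPM + 1).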

How the data were processed

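Poly(A) RNA libraries (strand-marking kit, single reads) were aligned by the authors with STAR 2.6.1 to mm10 and quantified with RSEM 1.3.1. They deposited expected counts (estimated counts), TPM and FPKM per gene for 192 samples. Expected counts and TPM of eWAT and iBAT were used here, and the 192 FPKM columns and the other tissues were not. Expected counts were rounded and tested in 23 eWAT libraries (WT and Nrf2-KO, FL04 left out) with edgeR 4.0.16 in R 4.3.3 (filterByExpr, TMM factors, quasi-likelihood test, Benjamini-Hochberg adjustment over all tested genes). The response of eWAT was compared with that of iBAT in 24 WT libraries. Both depots came from the same mice, and the deviations of a mouse in its 2 depots correlated by -0.06 to 0.43, so a fit with the mouse as a block was also made. Totals of about 15471200 to 15995100 counts set the precision of each WT eWAT library.

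Results were recomputed with RLE factors, with DESeq2 1.42.0, and with a limma 3.58.1 fit of TPM as log2(TPM + 1) for genes averaging at least 5 TPM in a group. Further settings were no filter on low counts, FL04 included, WT libraries alone, the mouse number as a block and each WT library left out. Genes were named as the first 6 members of each of 52 lists, up to 4 called members per list and direction with the smallest adjusted p, the 15 in each direction with the largest change without overlap and a mean of at least 5 TPM, the 10 with the smallest adjusted p, Nfe2l2, and 5 in each direction for iBAT. Short lists (under 26 members) could be given whole. The lists and the comparison were chosen with earlier results of these data known. Some named genes are not reported here. Gene positions come from GENCODE vM21.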

Additional observations from a re-analysis of the deposited data

Results flagged for a closer look

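In 350 groups of 6 libraries, the gap between an extreme library and its nearest neighbour was set against the whole range of the group. Dixon's limit was passed by 35. Independent, normally distributed values pass it about 1 time in 20, a rate that TPM values of related genes need not follow. The count is therefore a description and no test. The B cell RNA of FL03 was known before these groups were chosen. FL03 accounted for 13 of the 35. It was far above the other flight libraries for Ms4a1 (9.53 TPM), Cd79a (27.9 TPM) and the summed B cell (2799 TPM), plasma cell (3789 TPM) and T cell and NK cell markers (156 TPM). The same library stood apart for Cpt1a (72.0 TPM), Col1a1 (212 TPM), Col3a1 (659.8 TPM), Cd68 (172 TPM), Adgre1 (24.9 TPM), Mcpt4 (5.21 TPM), Cpa3 (3.13 TPM) and the summed mast cell list (37.5 TPM).

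FL07 stood apart for metabolic genes, being far above the other flight libraries for Tst (26.1 TPM), Acadsb (85.2 TPM), Pcx (576 TPM), Suclg2 (45.7 TPM), Gys1 (93.5 TPM), Tbc1d4 (33.0 TPM), Tfrc (12.0 TPM) and Oplah (32.4 TPM). FL06 was far above the rest for Cxcl1 (15.9 TPM) and Hspb7 (92.8 TPM), and FL08 for Bmp3 (52.6 TPM).

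Among ground libraries, GC07 was far above the others for Cd79a (7.93 TPM), summed plasma cell markers (1632 TPM) and Fmo1 (349 TPM) and far below them for mt-Nd6 (289 TPM). GC08 stood above for Mccc1 (180.5 TPM), Slc2a4 (208 TPM), Glb1l2 (313 TPM) and Fosl1 (0.61 TPM). Single values also stood out for Acly in GC05 (207 TPM), Serpina3b in GC03 (25.2 TPM) and summed T cell and NK cell markers in GC10 (199 TPM).

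The test of eWAT against iBAT put 10 named genes here, by differences between the log2 flight responses of the depots. They were higher in eWAT for G6pdx (1.60), Gstm1 (1.24), Deptor (1.81), Fabp5 (1.82) and Pold4 (1.62), and lower for Oplah (-1.16), Ppm1m (-0.67), Nol6 (-0.93), Ankrd52 (-1.11) and Mark2 (-0.82).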

How the results depend on the processing

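Against 1019 genes called higher and 1038 lower in FL_WT, limma on log2(TPM + 1) gave 1823 and 460, and leaving out 1 library gave 759 to 1231 and 721 to 1083. The other settings stayed within 1.5 times those counts. For the difference between WT and Nrf2-KO responses, DESeq2 called 16 genes and the mouse number as a block 1, against 0. Against 678 genes called with a higher and 675 with a lower response in eWAT than in iBAT, the counts were 370 and 390 without FL06 and FL08, 288 and 2185 by limma (both settings chosen after seeing the data), and 359 lower without a filter. The mouse as a block gave 728 and 712 and changed none of the 10 named differences. Flight and ground mice with the same number are different animals by design. The deviations of same-numbered mice correlated by -0.09 to 0.32, and 2 of 6 pairs were best with their own number. A block on that number gave 1138 higher and 1139 lower and changed 6 named calls. Of 146 named genes that were called, 127 were called under all settings that gave a value, and none changed sign. The 19 genes that were not called had 352 values under the other settings, of which 10 passed the threshold with the same sign. The value changed sign without FL03 for Cd79a (-0.95, up to 2.05 with another library left out) and Col3a1 (-0.27, up to 0.22). With the number as a block, it changed sign for Ms4a1 (-0.63) and Col3a1 (-0.040). The cause was not tested.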
